A study of Mus musculus with 17 samples.

Results

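The genes described here encode the keratins, the claudins and the other building blocks of epithelial cell junctions. They were chosen by gene symbol: every keratin (Krt), claudin (Cldn), desmoglein (Dsg), desmocollin (Dsc), plakophilin (Pkp), alpha or beta connexin (Gja, Gjb) and zonula occludens protein (Tjp), together with Dsp, Cdh1, Epcam and Ocln. Of 109 mouse symbols that match this rule in RefSeq, 85 had a probe set of their own on the array, out of 17097 genes measured. They comprise 41 keratins, 20 claudins, 9 connexins, 6 desmosomal cadherins, 3 plakophilins with desmoplakin, 2 zonula occludens proteins with occludin, and the adhesion molecules Cdh1 and Epcam. The other matching symbols were not analysed here.

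Keratins form obligate pairs of a type I and a type II chain that assemble into the intermediate filaments of epithelial cells, with Krt8 and Krt18 as the pair of simple epithelia and Krt5 and Krt14 as the pair of basal and myoepithelial cells. Claudins and occludin seal the space between neighbouring cells at the tight junction and are held there by the zonula occludens scaffolds, while E-cadherin (Cdh1) carries the adherens junction. Desmogleins and desmocollins bridge cells at the desmosome and are tied to keratin through plakophilins and desmoplakin, and connexins form the channels of gap junctions. In the lacrimal gland these structures join the secretory acini and the ducts, and contractile myoepithelial cells surround the acini.

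The arrays profiled sorted cells from male NOD mice, an inbred strain that develops inflammation of the lacrimal gland. Gland tissue gave 3 arrays of epithelial cells, sorted as CD45- CD326+, 4 of B cells (CD45+ B220+ CD3-) and 4 of CD4 T cells (CD45+ CD3+ CD4+), both lymphocyte gates also negative for NKp46, CD11b and CD11c. From the spleen there were 3 arrays of B cells and 3 of CD4 T cells, sorted as steady-state controls. No group carried a genetic modification or a drug treatment in the labels. Gland donors were 16 weeks old, while for the spleen donors the sample labels state 16 weeks but the design text 4 weeks. Gland suspensions were made by mechanical dissociation with enzymes, a step that the labels do not state for the spleen, so tissue, digestion and perhaps age cannot be told apart in comparisons of gland with spleen. Nothing says that replicates came from separate animals, and p-values therefore cover only the variation among the samples at hand, possibly technical.

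Values are deposited log2 expression levels, with a median of 4.71 over all probe sets and arrays, and arrays within a group correlated at 0.977 to 0.996. They carry no detection calls, so a level under that median cannot be told from background here. The lymphocyte labels matched their marker lists. The mean level of 8 measured B cell genes was 9.92 to 10.2 in B cell arrays and 4.23 to 4.75 in CD4 T cell arrays, and that of 9 T cell genes was 10.4 to 10.6 in CD4 T cells and 5.02 to 5.53 in B cells. The CD45-negative epithelial sort also carried markers of other cells. All 11 endothelial markers lay above 4.71 in it, with a mean of 8.18 to 8.75 against 3.61 to 4.37 in the lymphocyte arrays, and 10 of them were higher than in gland lymphocytes, among them Tek (a difference of 7.40), Plvap (6.82) and Emcn (6.65). The 8 myoepithelial markers were all higher (mean 7.57 to 8.01), and the 9 fibroblast markers averaged 6.05 to 6.63 with 5 of 9 higher. The mean of 5 pan-leukocyte genes was 9.27 in epithelial replicate 1 and 5.64 and 5.99 in the others, and Ptprc, the CD45 gene, stood at 9.62, 2.42 and 2.36. The CD45- CD326+ sort is called epithelium here after its label, and the part of these other cells in the results below was not tested.

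Among the promoters of these genes, 4 are shown because the 2 keratin pairs differed in the arrays: Krt18 and Krt8 were high in epithelium and raised in gland lymphocytes, and Krt5 and Krt14 were high in epithelium without a called rise in gland lymphocytes. The sequences are from RefSeq (GRCm38.p6) and run from 250 bases before to 50 bases after the start of the gene, 5′ to 3′ on the gene's own strand. Krt18 (chr15:102027966-102028265, plus strand) and Krt8 (chr15:102004293-102004592, minus strand) are neighbours on chromosome 15. Krt5 (chr15:101712856-101713155, minus strand) lies on the same chromosome but is not their neighbour. Krt14 (chr11:100205981-100206280, minus strand) lies on chromosome 11. Capitals mark matches to the E-box CAGGTG, to the GC box GGGCGG or to the TATA box TATAAA. Their reverse complements are CACCTG for the first, CCGCCC for the second and TTTATA for the last, and both strands were searched.
Krt18: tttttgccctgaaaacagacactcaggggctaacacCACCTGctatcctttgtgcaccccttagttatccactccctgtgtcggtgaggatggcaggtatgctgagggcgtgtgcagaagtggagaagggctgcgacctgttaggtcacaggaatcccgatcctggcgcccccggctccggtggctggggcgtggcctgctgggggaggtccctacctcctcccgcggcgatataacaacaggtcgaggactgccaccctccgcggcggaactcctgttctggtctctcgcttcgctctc
Krt8: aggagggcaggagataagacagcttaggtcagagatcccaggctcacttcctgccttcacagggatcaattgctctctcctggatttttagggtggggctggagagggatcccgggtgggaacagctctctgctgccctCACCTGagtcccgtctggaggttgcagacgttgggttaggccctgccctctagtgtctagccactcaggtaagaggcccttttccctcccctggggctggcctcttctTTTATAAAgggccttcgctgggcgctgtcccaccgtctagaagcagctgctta
Krt5: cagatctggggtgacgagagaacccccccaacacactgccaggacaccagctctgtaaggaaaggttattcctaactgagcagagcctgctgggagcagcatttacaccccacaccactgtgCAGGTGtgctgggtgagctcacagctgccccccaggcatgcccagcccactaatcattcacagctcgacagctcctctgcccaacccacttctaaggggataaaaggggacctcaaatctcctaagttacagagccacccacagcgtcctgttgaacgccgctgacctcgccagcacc
Krt14: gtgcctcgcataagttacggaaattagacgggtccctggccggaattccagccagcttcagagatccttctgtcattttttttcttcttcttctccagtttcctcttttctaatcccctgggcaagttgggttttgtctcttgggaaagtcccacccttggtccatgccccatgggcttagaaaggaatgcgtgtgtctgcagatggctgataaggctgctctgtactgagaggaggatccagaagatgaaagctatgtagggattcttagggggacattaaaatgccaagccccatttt

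Krt18, Krt8 and Krt5 each held 1 match to CAGGTG, the E-box form that the Snail and ZEB repressors bind, and Krt14 held none. In Krt8 a forward and a reverse match to TATAAA overlap in the capitals TTTATAAA. Of the 30 genes called higher in epithelium below, 20 had a promoter entry, and 14 of these 20 held CAGGTG. Counted by window, 15 of their 29 windows (51.7%) held it, against 20.2% of all 32851 windows of this length. GGGCGG, the GC box, was found in 16 of the 29 windows (55.2%, against 35.7% of all), and TATAAA in 3 (10.3%, against 13.6%). These are letter matches in windows of 300 bases, and no test was made of them.

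The comparison of epithelium with gland lymphocytes asks which of these structural genes mark the CD326-gated cells in this gland. Of the simple keratins 5 of 6, of the basal keratins 3 of 6, the claudins Cldn8, Cldn7, Cldn4 and Cldn10, Cdh1, and all 4 plaque genes of the desmosome were higher in epithelium than in B or CD4 T cells of the same gland, while hair keratins, epidermal desmosomal cadherins and most connexins were not. A gene was called at an adjusted p under 0.05 in limma over all 17097 genes and a log2 difference of at least 1, which is 2-fold, and a gene called higher also had to exceed each lymphocyte group. By this rule 30 of the 85 genes were higher and 1 was lower in epithelium than in gland lymphocytes, against 14.9% and 10.3% of all genes. The median difference over the 85 genes was 0.11, beside -0.10 over all genes. Every epithelial array lay above every gland lymphocyte array for 34 members, among them the 30 called, and this held for 21.5% of all genes. Epcam encodes CD326, the antigen of the gate, so its level in epithelium was fixed by the sort.

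**Figure D1:**
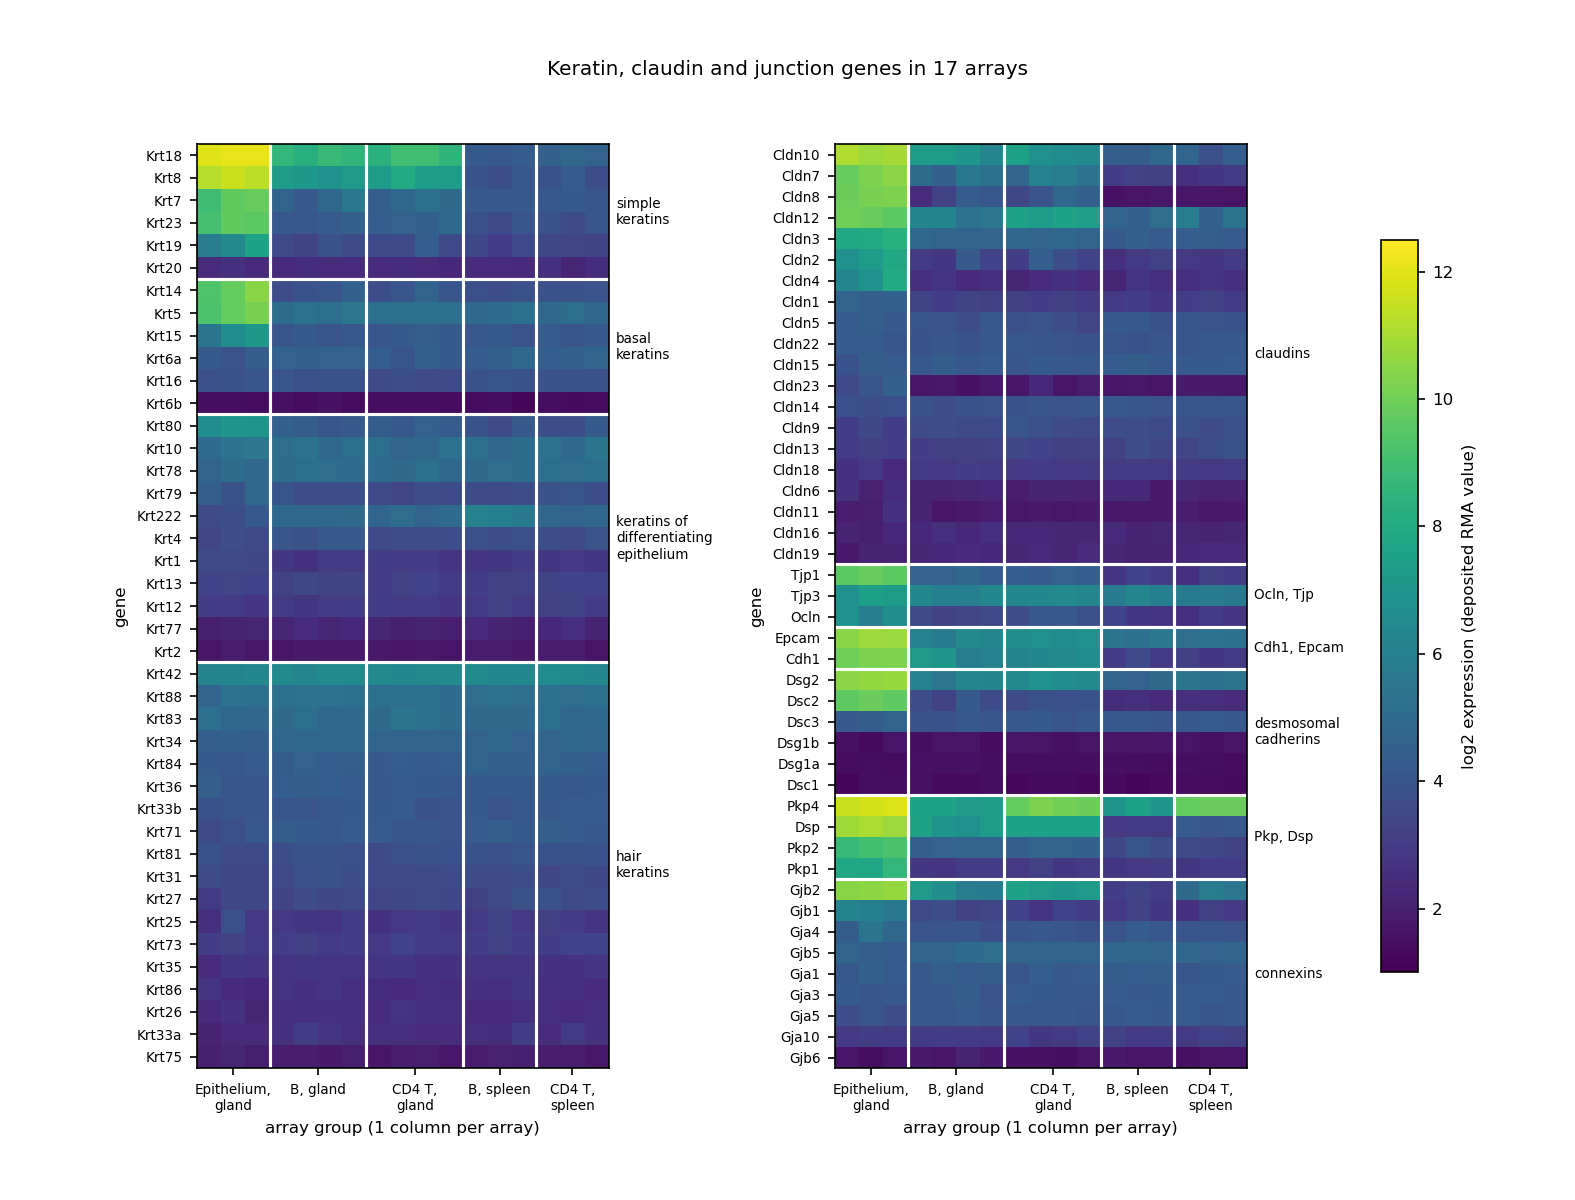
Log2 expression of the 85 genes (rows, grouped by role and ordered by their level in epithelium) in each of the 17 arrays (columns, grouped by cell type and tissue); colour shows the log2 value. Krt18, Krt8, Dsp, Gjb2, Cdh1 and Cldn10 are bright in epithelium and intermediate in gland lymphocytes, Krt14, Krt5, Krt23 and Pkp1 are bright in epithelium alone, and hair keratins hardly vary. Brightness of different rows depends on the probe set and is not a ranking of genes.

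Of the 6 keratins of simple epithelium, 5 were higher in epithelium. Krt18 read 11.92, 12.12 and 12.14 in the 3 epithelial arrays and 8.20 to 8.96 in the gland lymphocyte arrays, a difference of 3.45 (SE 0.14). Its partner Krt8 read 11.21, 11.59 and 11.37 in epithelium and 6.89 to 8.02 in gland lymphocytes, a difference of 4.08 (SE 0.16). Both genes lay far above the median of all values in gland lymphocytes too. Krt7, a type II keratin of ducts, read 8.93, 9.67 and 9.84 in epithelium and 4.20 to 5.63 in gland lymphocytes, which is 24.5-fold. Krt23, a type I keratin of glandular epithelium, read 9.12, 9.70 and 9.60, against 4.14 to 4.92, which is 32.4-fold (limma adjusted p = 5.10e-14). Neither gene had an epithelial array within reach of a lymphocyte array. Krt19, the small type I keratin of ducts, differed by 2.98 (SE 0.28) and read 5.88, 6.43 and 7.68, the last array standing 1.80 above the lowest. Krt20, a keratin of gut and urothelium, stood at 2.34 to 2.64 in all 11 gland arrays.

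Basal keratins followed. Krt14 read 9.33, 9.78 and 10.47 in epithelium, 3.70, 3.92, 4.09 and 4.55 in gland B cells and 3.76, 4.08, 4.67 and 4.06 in gland CD4 T cells. Its difference of 5.75 (SE 0.22), or 54.0-fold, was the largest of any keratin. Krt5 read 9.26, 9.80 and 10.16 in epithelium and 5.06 to 5.54 in the gland lymphocytes, a difference of 4.50 (SE 0.15). Krt15, a basal keratin of stratified epithelium and hair follicles, was 4.62-fold higher and varied widely, at 5.48, 6.62 and 7.12. The stress-responsive Krt6a, Krt6b and Krt16 were not called and had epithelial means of 4.21, 1.44 and 3.89. The 8 genes of the myoepithelial list averaged 7.85, 8.01 and 7.57 in the same epithelial arrays, lowest in replicate 3, where Krt14, Krt5 and Krt15 were highest. That list included Acta2, smooth muscle actin, at a difference of 6.36. Trp63, the transcription factor of basal and myoepithelial cells, differed by 5.31.

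Keratins of differentiating and cornifying epithelium were mostly flat. Of 11 measured, only Krt80 was higher, with 6.66, 6.99 and 6.97 in epithelium and 4.09 to 4.64 in gland lymphocytes, a difference of 2.52 (SE 0.15). Krt1, Krt10, Krt4 and Krt13, which mark the upper layers of epidermis or of mucosa, had differences of 0.60, 0.26, -0.31 and 0.10. Krt222, a keratin-like gene, was the only member called lower. It read 3.67, 3.78 and 4.15 in epithelium, 4.90, 4.86, 4.88 and 4.98 in gland B cells and 4.76, 5.09, 4.74 and 5.02 in gland CD4 T cells, a difference of -1.04 (SE 0.11). It missed the fold minimum without epithelial replicate 1 (-0.94) or replicate 2 (-0.99). None of the 18 keratins of hair and its root sheath was called by limma, and their differences ran from -0.38 to 0.21. An unadjusted limma p under 0.05 was reached by 6 of them, and by 11591 of all 17097 genes. The other 17 apart from Krt42 had group means of up to 5.24, and the mean of Krt42 was 6.22 in epithelium and 6.40 to 6.45 in the lymphocyte groups.

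Among claudins 9 of 20 were higher. Cldn8, a barrier claudin of tight distal epithelia, read 9.94, 10.16 and 10.23 in epithelium, 2.46, 3.25, 4.34 and 4.11 in gland B cells and 3.47, 3.95, 4.82 and 4.52 in gland CD4 T cells. The difference of 6.24 (SE 0.32) was the largest among the chosen probe sets of the 85 genes, at 75.8-fold. Cldn7, a claudin of the lateral membrane, read 9.82, 10.25 and 10.51 in epithelium and 4.52 to 6.05 in gland lymphocytes, which is 29.5-fold. Cldn4, which pairs with Cldn8 in kidney collecting ducts, read 6.21, 6.84 and 8.03, against 2.23 to 2.74. Its epithelial arrays covered a range of 1.82, more than any other called member, yet all stood clear of the lymphocytes. Cldn10, which forms ion-selective channels, read 11.11, 10.83 and 10.97, and its difference of 4.06 (SE 0.26) was held down by gland lymphocyte levels of 6.22 to 7.56. Cldn2, a cation- and water-permeable claudin, Cldn3, a barrier claudin, and Cldn12 differed by 3.82, 3.30 and 3.15. Cldn23 and Cldn1 differed by 2.25 and 1.39. Their epithelial means on the chosen probe sets, 4.04 and 4.57, lay under 4.71 and cannot be told from background here. Cldn5, the main claudin of blood vessels, was not called and had a mean of 4.32 ± 0.14 (SD, n = 3) in epithelium and 3.73 to 4.06 in the lymphocyte groups, although the endothelial list was raised in the same arrays. The other 10 claudins had group means under 4.71 throughout.

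**Figure D2:**
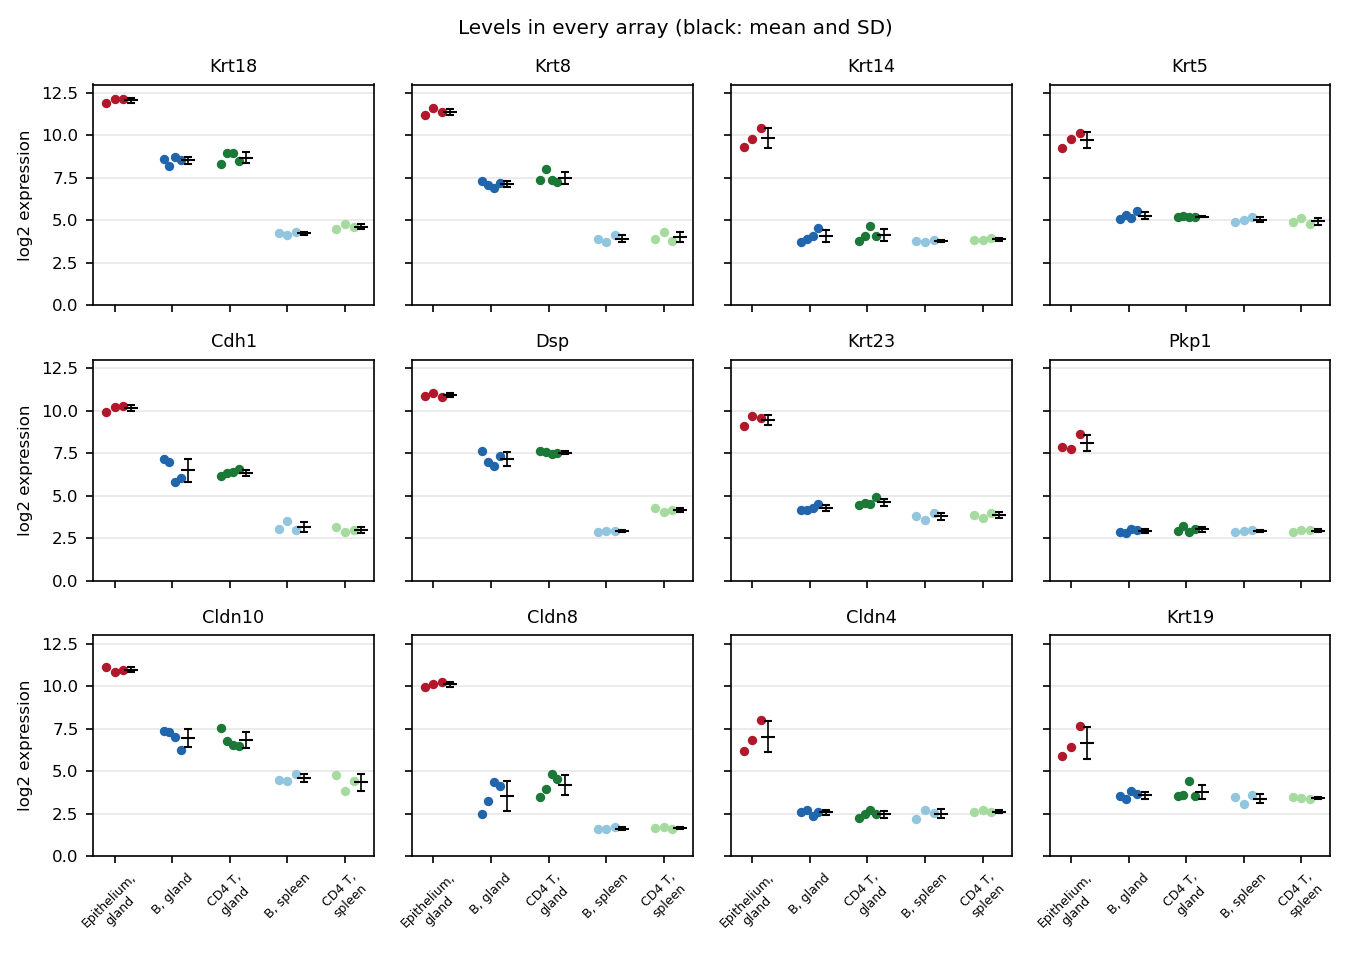
Log2 expression (vertical axis) of 12 genes in every array of the 5 groups, with the mean and SD in black beside the points. Krt18, Krt8, Cdh1, Dsp and Cldn10 in gland lymphocytes lie between epithelium and spleen, whereas Krt14, Krt5, Pkp1 and Cldn4 have means that differ from spleen by at most 0.28; Cldn8 varies from 2.46 to 4.34 among gland B cell arrays.

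Tight junction and adhesion proteins gave large differences. Tjp1, the scaffold ZO-1, read 9.61, 9.84 and 9.58 in epithelium and 4.29 to 4.82 in gland lymphocytes, a difference of 5.14 (SE 0.13). Ocln read 6.93, 5.91 and 6.73 and differed by 2.83 (SE 0.19), and Tjp3 differed by 0.96 and fell just short of the fold minimum. Cdh1 read 9.94, 10.21 and 10.28 in epithelium, which is 13.1-fold above gland lymphocytes. Epcam read 10.46, 10.81 and 10.77 in epithelium and 5.80 to 6.80 in gland lymphocytes. These arrays were the ones its antigen selected.

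In the desmosome, 6 of 10 measured genes were higher. Dsc2 read 9.64, 9.87 and 9.63 in epithelium, against 3.25 to 4.24 in gland lymphocytes, and its difference of 5.96 (SE 0.14) was second to that of Cldn8 among the chosen probe sets (limma adjusted p = 8.77e-15). Dsg2 read 10.49, 10.62 and 10.74 and differed by 4.31 (SE 0.15). Both are the desmosomal cadherins of simple epithelia. Dsg1a, Dsg1b and Dsc1, the forms of the upper epidermis, had means of 1.34 to 1.52 in epithelium. All 4 plaque genes were higher. Pkp1, the plakophilin of stratified and basal cells, read 7.87, 7.76 and 8.63, against 2.80 to 3.22, and was 34.6-fold higher. Pkp2, the plakophilin of simple epithelium and heart, read 8.72, 9.02 and 9.20, against 4.46 to 4.74, and was 20.8-fold higher. Dsp, which ties the plaque to keratin, differed by 3.56 (SE 0.13), and Pkp4, which is also found at adherens junctions, by 3.01 (SE 0.13).

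Of 9 connexins, Gjb2 and Gjb1, the beta connexins of secretory glands, were higher in epithelium. Gjb2 read 10.48, 10.54 and 10.67 in epithelium and 5.78 to 7.60 in gland lymphocytes, a difference of 3.74 (SE 0.25). Gjb1 read 6.13, 5.94 and 5.64, against 2.79 to 3.77, a difference of 2.59 (SE 0.15). Gja4, a connexin of vessel walls, differed by 0.90 and was not called.

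The rule took the brightest probe set of each gene over all arrays, and for Gja1, Dsc3 and Cldn1 it gave a much smaller difference in epithelium than another probe set of the gene. Gja1, the connexin of myoepithelial and many other cells, had a chosen probe set with group means of 4.22 to 4.43 and no difference in epithelium (0.05). Its 4 other probe sets had epithelial means of 9.59, 10.31, 8.48 and 9.27 and lymphocyte means of 1.65 to 3.99, with differences from gland lymphocytes of 5.34 to 7.26. Each of those 4 was called in a limma fit with every probe set on its own, at adjusted p values of 3.62e-10 or less. Dsc3, a desmocollin of basal cells, differed by 0.36 on the chosen probe set and by 3.43 on the other, and Cldn1 by 1.39 and 4.86. With a call on any probe set counted, 32 of the 85 genes were higher in epithelium than in gland lymphocytes, Gja1 and Dsc3 being the additions. The share of all genes under this rule is not given here. For other genes a probe set gave a smaller difference than the chosen one. Against spleen lymphocytes Cldn2 differed by 4.41 on the chosen probe set and 0.22 on the other, and Gjb1 by 2.94 and 0.96. Dsp differed by 7.37 on the chosen probe set and by 8.31 and 0.85 on others. The differences of 0.22, 0.96 and 0.85 were not called.

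**Figure D3:**
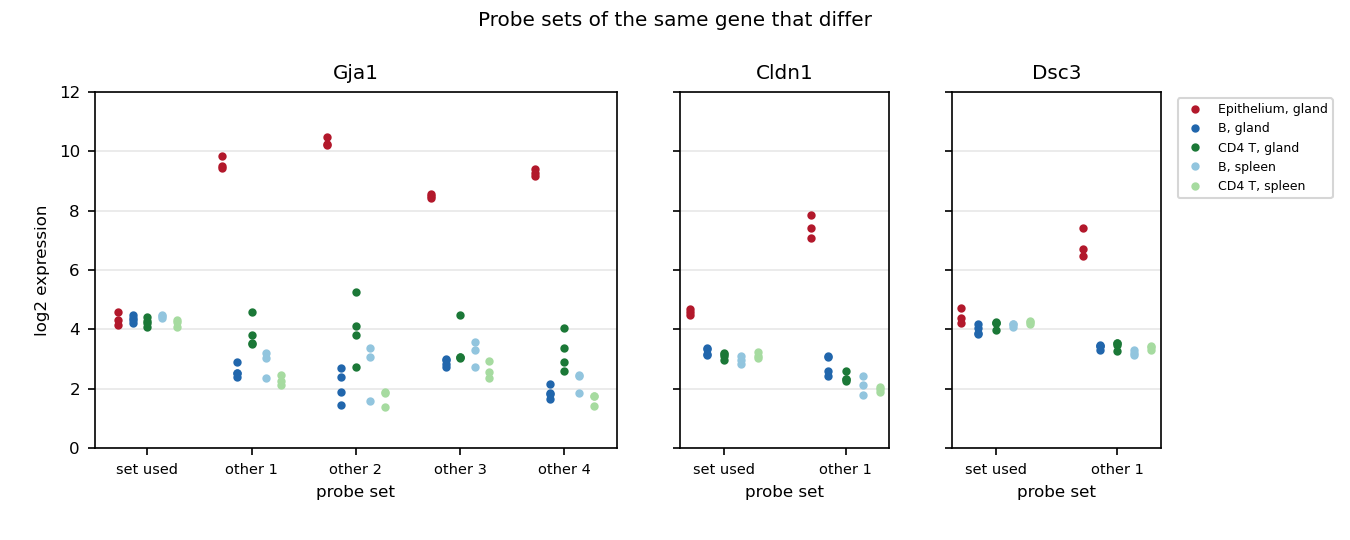
Log2 expression (vertical axis) for each probe set (horizontal axis) of Gja1, Cldn1 and Dsc3, with 1 point per array coloured by group. The probe set used for Gja1 stays near 4.3 in every group, and its 4 other probe sets have epithelial means of 8.48 to 10.31.

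Against spleen lymphocytes, 31 genes were higher (15.6% of all genes) and 1 lower (11.2%). This comparison and the one with gland lymphocytes share the epithelial arrays. Tjp3 was called here at 1.34 (SE 0.14). Krt18 differed by 7.61, Krt8 by 7.43, Dsp by 7.37 and Cdh1 by 7.06. Without epithelial replicate 1, the array with leukocyte transcripts, 32 genes were higher against gland and 32 against spleen lymphocytes. The shares of all genes without this array are not given here.

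The 3 epithelial arrays did not agree equally on all genes. Among the 30 genes called higher, replicate 1 was the lowest array for 21 and replicate 3 the highest for 18. Replicate 1 lay a median of 0.299 below the mean of the others, and it was the array with leukocyte transcripts. A range over 1 was seen for Cldn4, Krt19, Krt15, Krt14, Ocln and Cldn2, and Krt18, Krt8, Dsp, Gjb2, Cdh1, Tjp1, Dsg2 and Dsc2 each varied by less. Ducts and basal cells are the known sites of Krt19, Krt15 and Krt14. The part of the cell mixture in this spread was not tested.

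In the genome, 36 pairs of these genes were neighbours among the measured members in RefSeq order. In 4 pairs both genes were higher in epithelium (Krt15 and Krt19, Krt80 and Krt7, Krt8 and Krt18, Cldn4 and Cldn3), in 11 pairs 1 gene was and in 21 pairs neither was.

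Genes that work with these structures were read from lists drawn up for this description. Of 24 tight junction partners 13 were higher in epithelium than in gland lymphocytes and 2 lower, led by Marveld3, a relative of occludin (5.72), Cgn, cingulin (5.09), and F11r, a junctional adhesion molecule (4.96). Of 22 genes of the adherens junction and classical cadherins 13 were higher and 1 lower, led by the catenins Jup (4.53) and Ctnnd1 (4.46) and by the linker Afdn (4.31). Cdh5, the cadherin of endothelium, was among the higher ones at 3.44. Of 12 plakins and hemidesmosome genes 9 were higher, including Col17a1 (4.50), which anchors basal cells, and Eppk1 (4.16). Epithelial splicing and transcription factors gave 14 higher of 17, with Elf5 at 5.19 and Sox9 at 4.21. The cornified envelope list, which also holds the basal regulator Trp63, gave 2 of 12, or 16.7%, near the 14.9% of all genes. They were Trp63 itself and Sbsn at 3.69. Of 8 other connexins and pannexins, Gjc1 was higher (2.71) and Panx1 lower (-1.97). Repressors of E-cadherin and other intermediate filaments gave 2 higher and 3 lower of 13. Zeb1, a repressor of Cdh1, stood at 8.84, 8.98 and 8.97 in epithelium and 10.1 to 10.4 in gland lymphocytes, and Snai2, another such repressor, was higher in epithelium by 3.06.

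Gland lymphocytes were then set against lymphocytes of the spleen. The simple keratins Krt18 and Krt8, the junction genes Cdh1, Dsp and Gjb2, and the claudins Cldn10, Cldn7 and Cldn8 were higher in gland than in spleen arrays of both B and CD4 T cells, while the basal keratins were not called. In B cells 12 of the 85 genes were higher in the gland (2.58% of all genes) and 0 lower (1.6%), and in CD4 T cells 15 were higher (5.35%) and 0 lower (1.62%). At an unadjusted p under 0.05 in either direction, limma gave 25 genes for B cells and 24 for CD4 T cells. Among all 17097 genes it gave 5035 and 5623, so the members held no larger a share at that cut. Every gland array lay above every spleen array for 20 genes in B cells (14.5% of all genes) and for 23 in CD4 T cells (16.8%). All 12 genes called in B cells were among the 15 called in CD4 T cells, an overlap that was not counted over all genes. These comparisons share no arrays, but they share the fit and its estimate of spread. In sorted bulk samples, fewer cells of a type and less RNA per cell cannot be told apart.

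**Figure D4:**
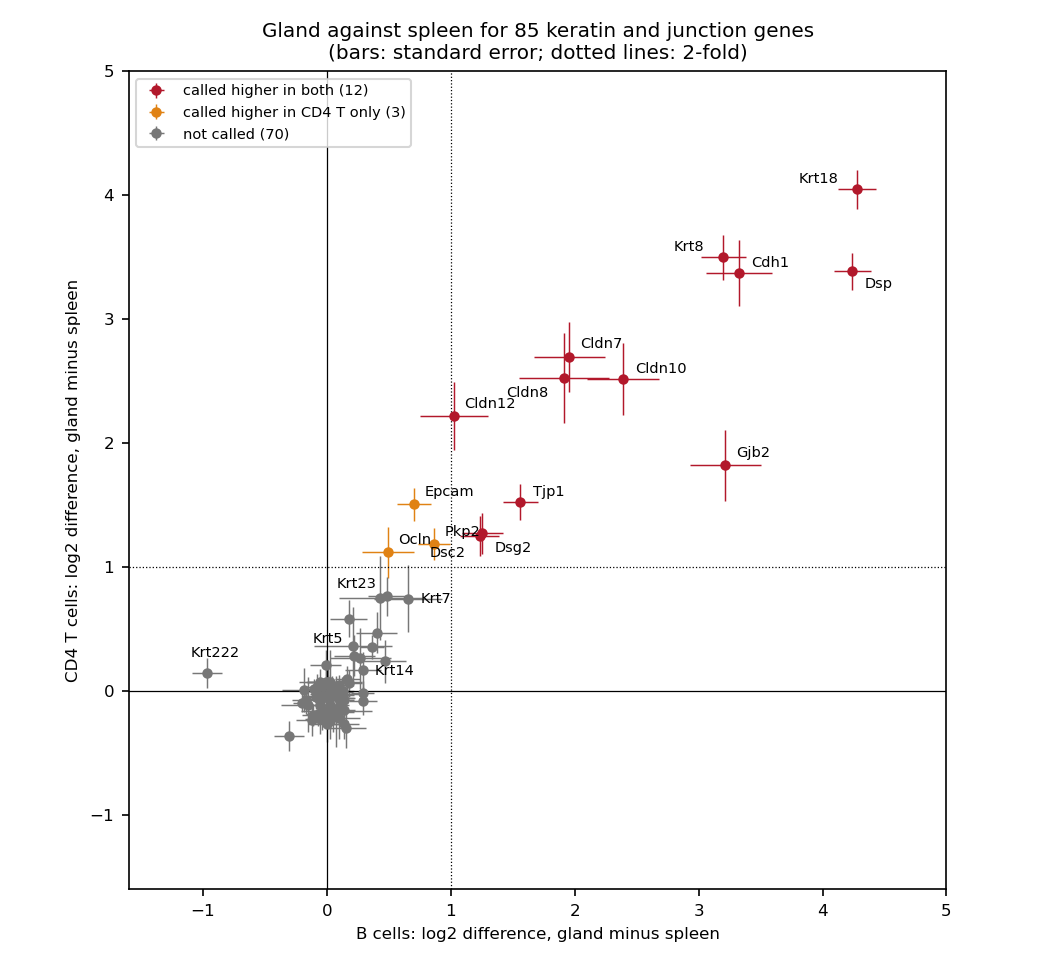
Log2 difference of gland minus spleen for 85 genes, with B cells on the horizontal and CD4 T cells on the vertical axis, with standard errors as bars and dotted lines at 2-fold. The 12 genes called higher in both run from Dsc2, Dsg2 and Cldn12 up to Krt18 at 4.28 and 4.05; Krt14 and Krt5 lie close to 0 and Krt222 lies to the left at -0.97 and 0.14.

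Krt18 read 8.60, 8.20, 8.74 and 8.57 in gland B cells and 4.26, 4.16 and 4.34 in spleen B cells. The CD4 T cell arrays read 8.33, 8.96, 8.96 and 8.51 in the gland and 4.52, 4.79 and 4.62 in the spleen. The gland arrays stood about 4 above the spleen arrays in both, with differences of 4.28 (SE 0.15) and 4.05 (SE 0.15). Krt8 read 7.30, 7.11, 6.89 and 7.21 in gland B cells, against 3.90, 3.76 and 4.14 in spleen. The corresponding CD4 T cell values were 7.36, 8.02, 7.35 and 7.25, against 3.90, 4.33 and 3.77. Its differences were 3.20 (SE 0.18) and 3.50 (SE 0.18), with no overlap between gland and spleen. Krt7 and Krt23, the other bright simple keratins, were not called, at 0.65 and 0.74 for Krt7 and 0.49 and 0.76 for Krt23.

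Dsp, the plaque protein, read 7.63, 6.96, 6.76 and 7.32 in gland B cells and 2.89, 2.94 and 2.95 in spleen B cells, a difference of 4.24 (SE 0.15). In CD4 T cells it read 7.63, 7.57, 7.48 and 7.51, against 4.28, 4.05 and 4.16, a difference of 3.38 (SE 0.15). Spleen CD4 T cells thus started from a higher value than spleen B cells. Cdh1 read 7.18, 6.98, 5.81 and 6.03 in gland B cells and 3.04, 3.52 and 2.97 in spleen B cells, a difference of 3.32 (SE 0.27). Gland CD4 T cells gave 6.14, 6.33, 6.41 and 6.57 and spleen CD4 T cells 3.16, 2.85 and 2.97, a difference of 3.37 (limma adjusted p = 1.40e-07). Gland B cell replicates 1 and 2 were above the other gland B cell arrays for Cdh1.

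Gjb2 was likewise higher in gland B cell replicates 1 and 2, at 7.22, 6.68, 5.82 and 5.78, and read 3.13, 3.36 and 2.99 in spleen B cells. In CD4 T cells it read 7.60, 7.23, 7.06 and 7.18 in gland and 4.99, 5.81 and 5.54 in spleen. Differences were 3.21 (SE 0.29) and 1.82 (SE 0.29). Tjp1 read 4.62, 4.62, 4.82 and 4.42 in gland B cells and 2.83, 3.32 and 3.03 in spleen B cells. In CD4 T cells it read 4.46, 4.29, 4.62 and 4.43, against 2.60, 3.16 and 3.02. Its differences of 1.56 and 1.52 were close to each other, but the gland arrays themselves lay near the median of all values.

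The called claudins were Cldn10, Cldn7, Cldn8 and Cldn12. Cldn10 read 7.36, 7.30, 6.99 and 6.22 in gland B cells and 4.50, 4.40 and 4.84 in spleen B cells, a difference of 2.39 (SE 0.29). In CD4 T cells it read 7.56, 6.78, 6.57 and 6.51, against 4.77, 3.81 and 4.44, a difference of 2.52 (SE 0.29). Neither cell type had a gland array at spleen level. Cldn7 read 5.05, 4.52, 5.63 and 5.26 in gland and 3.07, 3.21 and 3.19 in spleen B cells. Its CD4 T cell values were 4.74, 6.05, 5.86 and 5.39, against 2.55, 2.85 and 3.04. These gave 3.88-fold and 6.48-fold differences. Cldn8 read 2.46, 3.25, 4.34 and 4.11 in gland B cells and 3.47, 3.95, 4.82 and 4.52 in gland CD4 T cells, and 1.57 to 1.73 in all 6 spleen arrays. Most of its gland values lay under the median of all values, and its order among arrays was not that of Cldn10. Cldn12 read 6.20, 6.18, 5.29 and 5.54 in gland B cells and 4.69, 4.52 and 5.12 in spleen B cells, a difference of 1.03 (SE 0.28) that passed by a small margin. Its call in B cells was lost without gland B cell replicate 1 (0.89) or 2 (0.90) and without spleen B cell replicate 1 (0.98) or 2 (0.90). The mean of its probe sets also missed the fold minimum in B cells (0.86), and its other probe set was not called there (0.70).

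Dsg2 read 6.07, 5.50, 6.25 and 6.21 in gland B cells and 4.64, 4.63 and 4.98 in spleen B cells, with differences of 1.26 in B and 1.27 in CD4 T cells. Dsc2 differed by 1.23 and 1.25. The mean of each gene's probe sets missed the fold minimum, at 0.89 and 0.73 for Dsg2 and 0.91 and 0.63 for Dsc2. Other probe sets of Dsg2 were also called in both cell types, at 1.91 and 2.05 in B cells and 1.45 and 1.60 in CD4 T cells. Its remaining probe sets were not called. The other probe set of Dsc2 was called in neither, at 0.59 and 0.01. Epcam, Pkp2 and Ocln were called in CD4 T cells, at 1.50, 1.19 and 1.12, and had 0.70, 0.86 and 0.49 in B cells. The other probe set of Pkp2 was called in both cell types, at 1.07 in B and 2.15 in CD4 T cells.

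Basal keratins behaved otherwise. Krt14 read 3.70, 3.92, 4.09 and 4.55 in gland B cells and 3.82, 3.74 and 3.84 in spleen B cells, with overlapping arrays and a difference of 0.27 (95% CI -0.25 to 0.79). For CD4 T cells its difference was 0.26 (95% CI -0.26 to 0.79). Krt5 differed by 0.22 (95% CI -0.13 to 0.57) in B cells and 0.28 (95% CI -0.07 to 0.63) in CD4 T cells. Every gland CD4 T cell array of Krt5 lay above every spleen array, at 5.20 to 5.26 against 4.79 to 5.15. No basal keratin was called, and none of the 6 reached an unadjusted p under 0.05 in either limma comparison (0 genes). Pkp1 differed by -0.01 and 0.07, and Cldn4 by 0.08 and -0.16. Small changes of these genes within the intervals given are not shown to be absent.

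A further view put the gland excess on the epithelial scale. For each probe set, the gland minus spleen difference of linear values was taken as a percentage of the linear epithelial mean, with no correction for background. Krt18 gave 8.21% for B cells and 9.08% for CD4 T cells, Dsp 7.04% and 8.74%, Cdh1 7.19% and 6.56%, and Krt8 4.64% and 6.12%. Krt14 gave 0.307% and 0.318%, and Krt5 0.637% and 0.777%. Over all 30 genes higher in epithelium the median was 2.07% for B cells and 2.85% for CD4 T cells. It was 3.91% and 5.44% over the 12 genes called in both cell types, 0.937% and 1.43% over the 15 called in neither, and 0.393% and 0.777% over Krt5, Krt14 and Krt15. These subsets were formed from the same gland and spleen values, so the order of their medians is no finding. The percentages of the 12 genes were not equal, running from 0.774% for Cldn8 to 8.21% for Krt18 in B cells and from 0.955% for Dsc2 to 15.9% for Cldn12 in CD4 T cells. Across the 30 genes higher in epithelium, the changes of both cell types had a Spearman correlation of 0.945, a description over genes read on the same platform.

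Marker lists of other cells were read in the same comparisons of gland with spleen. The mean of 14 lacrimal secretory genes was 8.01 to 8.45 in gland B cell arrays and 8.40 to 8.62 in gland CD4 T cell arrays, against 4.10 to 5.56 in spleen and 10.7 to 11.1 in epithelium. Of these 14 genes 11 rose from spleen to gland among B cells and 12 among CD4 T cells, led in both by Obp1a, an odorant-binding protein of lacrimal acini (7.22 and 7.34). The 8 myoepithelial genes averaged 4.13 to 4.40 and 4.42 to 4.66 in gland B and CD4 T cells, against 3.84 to 3.90 and 4.05 to 4.16 in spleen, with 1 of 8 called in each (Mylk). The 5 plasma cell genes had 4 higher in gland CD4 T cells, with a group mean of 8.23 against 6.42 in spleen, and 1 lower in gland B cells (7.76 against 8.35). The 11 endothelial genes had 0 called higher in either and 1 lower in gland CD4 T cells, with array means of 3.89 to 4.37 and 3.61 to 3.68 in the gland. The 9 fibroblast genes had 0 called in either. Of the 19 measured epithelial genes outside the keratin and junction families, 4 were higher in gland B cells and 5 in gland CD4 T cells. The part of transcripts from gland epithelium in the keratin and junction results was not tested.

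The partner lists were read in the same way in gland against spleen, where 2.58% of all genes were higher for B cells and 5.35% for CD4 T cells. The list of epithelial splicing and transcription factors had 6 of 17 higher, or 35.3%, in each cell type. These included the transcription factors Klf4 (4.61 and 5.16), Ehf (4.03 and 4.50) and the splicing regulator Esrp1 (3.95 and 3.55). Plakins and hemidesmosome genes had 1 of 12 in B cells (Perp, 3.51) and 3 of 12 in CD4 T cells (Perp, 4.46, Eppk1, 3.55, and Dst, 1.88). Tight junction partners had 0 of 24 called by limma for B cells and 2 for CD4 T cells (Marveld2, 1.43, and Cgn, 1.19). For B cells 12 of them had an unadjusted limma p under 0.05, against 5035 of all 17097 genes. Adherens junction genes had 1 of 22 higher in B cells (Afdn, 1.79), and in CD4 T cells Ctnna1 was higher (1.16) and Cdh13 lower (-1.93). The repressor and intermediate filament list had Lmna higher in both (1.90 and 1.80) and Twist2 in CD4 T cells (2.70). No cornified envelope gene, other connexin or pannexin was called.

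The gland changes of B and CD4 T cells were compared by a test of their difference, B minus CD4 T. Of the 85 genes, 1 was called higher (1.22% of all genes) and 1 lower (3.87%). Gjb2 changed more in B cells, by 1.39 (SE 0.41, limma adjusted p = 0.0395), and its spleen CD4 T cell arrays had stood above its spleen B cell arrays. The Gjb2 call was lost in 9 of 14 fits with 1 array left out, so it rests on the full set of arrays. Krt222 differed by -1.11 (SE 0.17, limma adjusted p = 0.00036). It read 4.90, 4.86, 4.88 and 4.98 in gland and 6.0, 5.96 and 5.67 in spleen B cells, and in CD4 T cells 4.76, 5.09, 4.74 and 5.02 against 4.81, 4.67 and 4.80. On this probe set spleen B cells were the high group. On the other Krt222 probe set B cells averaged 4.63 in the gland and 5.13 in the spleen, and CD4 T cells 4.63 and 3.61, with a rise of 1.02 called in CD4 T cells and a difference of the changes of -1.52. Dsp (0.86) and Epcam (-0.80) passed the adjusted p at 0.0157 and 0.0127 but not the fold minimum. The other 2 probe sets of Dsp gave 0.25 and -0.09, with limma adjusted p of 0.669 and 0.876. For Gja1, 3 of the 4 probe sets that were high in epithelium rose from spleen to gland among CD4 T cells, by 1.58 to 2.28, and none among B cells. The difference of the changes was called for those 3 probe sets, at -1.86, -2.86 and -1.97. Cldn12 differed by -1.19 on its chosen probe set, which was not called. On its other probe set it was called at -1.59 (limma adjusted p = 0.00034). The other probe set of Pkp2 was called at -1.09.

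**Figure D5:**
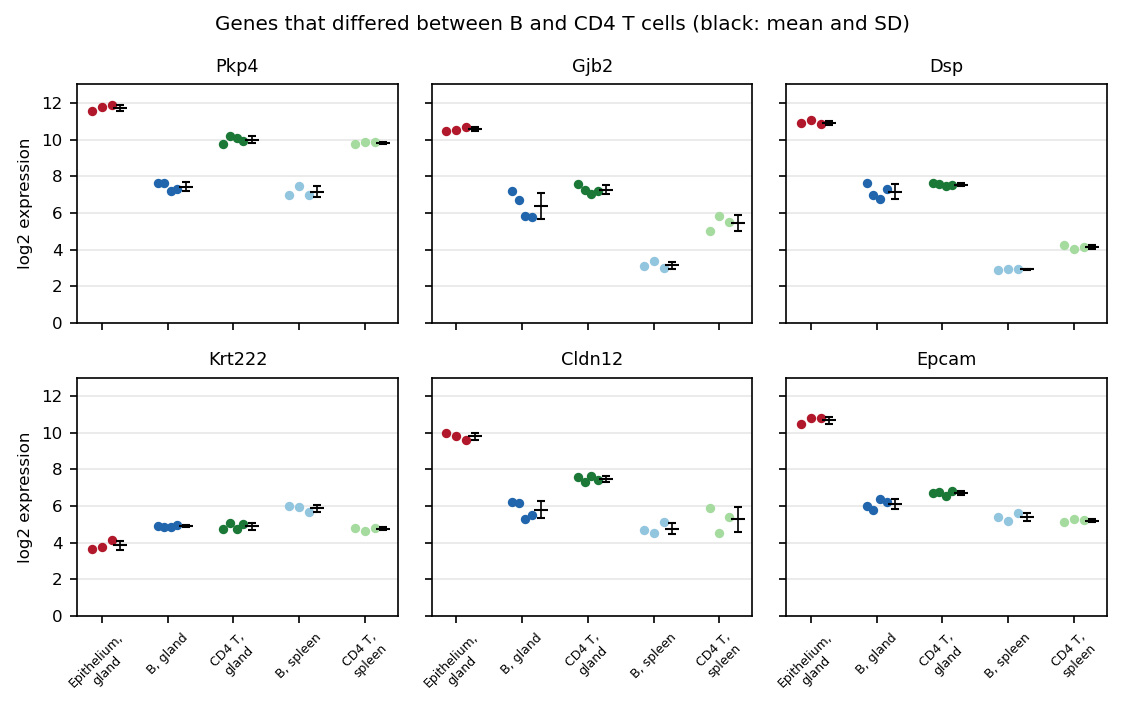
Log2 expression (vertical axis) of 6 genes in every array of the 5 groups, with the mean and SD in black. Pkp4 is high in CD4 T cells of both tissues, at 9.76 to 10.22, and low in B cells; Krt222 is highest in spleen B cells; Cldn12 stands at 7.30 to 7.64 in gland CD4 T cells alone among lymphocytes.

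Some members differed between B and CD4 T cells of the same tissue. Within the gland 0 were higher in B cells (3.73% of all genes) and 2 were lower (5.97%). At an unadjusted limma p under 0.05 in either direction there were 16 members, against 6707 of all 17097 genes. Pkp4 read 7.65, 7.61, 7.21 and 7.30 in gland B cells and 9.78, 10.22, 10.06 and 9.93 in gland CD4 T cells, a difference of -2.55 (SE 0.14). Cldn12 read 7.58, 7.30, 7.64 and 7.42 in gland CD4 T cells, above every gland B cell array, a difference of -1.69 (SE 0.26). Within the spleen 1 was higher in B cells (4.63%) and 3 lower (4.52%). Pkp4 read 6.96, 7.49 and 7.01 in spleen B cells and 9.76, 9.86 and 9.86 in spleen CD4 T cells, a difference of -2.68 (SE 0.16), so that this plakophilin was high in CD4 T cells of either tissue. Gjb2 and Dsp were lower in spleen B cells, by -2.29 (SE 0.31) and -1.23 (SE 0.16), and Krt222 was higher, by 1.12 (SE 0.13). The Dsp call was lost with the mean of its probe sets (-0.59).

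Across the 5 groups, 38 of the 85 genes had a mean over 4.71, the median of all values, in 1 group or more and 47 in none. The count was 35 in epithelium, 23 in gland B cells, 21 in gland CD4 T cells, 14 in spleen B cells and 15 in spleen CD4 T cells. In epithelium alone 15 genes passed. The shares of all genes for these group means are not given here. Levels above 4.71 in at least 3 arrays were found for 37 of the 85 genes. The filter for dim genes, also set at 3 arrays, kept 11506 of all 17097 genes, a larger share. Each gene was read on its brightest probe set, whereas 4.71 is the median over all probe sets.

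For the 12 genes raised in both gland lymphocyte types, deviations from the group means over the 8 gland lymphocyte arrays were set against those of Bhlha15, a transcription factor of acinar cells, and Ltf, lactotransferrin, which gave 24 relations tested by exact permutation within groups. For Cldn12 with Bhlha15, Pearson's r was 0.90 (exact p = 0.00521) and Spearman's rho 0.79 (exact p = 0.0278), with r = 0.90 without the 2 arrays farthest from the median. For Cldn10 with Ltf, r was -0.91 (exact p = 0.00694) and rho -0.76 (exact p = 0.0295), with r = -0.90 without the 2 farthest. After Benjamini-Hochberg adjustment the lowest p was 0.0833 for r and 0.198 for rho, so none of the 24 passed. Over the 12 genes, r with Bhlha15 ran from -0.81 for Dsc2 to 0.90 for Cldn12. With Ltf it ran from -0.91 for Cldn10 to 0.84 for Cldn8. These correlations over 8 arrays are descriptions, and other lacrimal secretory genes were not set against the 12 genes.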

How the data were processed

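RNA of sorted cells was amplified and hybridised to Affymetrix HT MG-430 PM arrays, 17 in all. The authors deposited log2 values for 45141 probe sets, made with RMA in Partek per the submitters' processing notes, and these values were used unchanged. The labels give a sort purity above 99%, and an RNA integrity number above 8 except for 3 samples (7.8, 7.7 and 7.2) that are not matched to arrays. Array annotation gave 28898 probe sets with 1 gene, 551 with several and 15588 with none listed. Each of 17097 genes was represented by its brightest 1-gene probe set, judged by the mean of the 17 arrays.

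A limma model (limma 3.58.1 in R 4.3.3) with 1 mean per group was fitted over all 17 arrays, with 12 residual and 3.17 prior degrees of freedom and Benjamini-Hochberg adjustment over all genes. A call required an adjusted p under 0.05 and a log2 difference of at least 1. Values in every array, or their range over the gland lymphocyte arrays, are given for the called genes with the largest changes (up to 12 that rose and 6 that fell in epithelium against gland lymphocytes, up to 10 in each comparison of gland with spleen, up to 4 in each other comparison) and for Epcam, Cdh1, Krt8 and Krt18. Other genes are named with fewer values, and up to 4 called genes were named per list; Cdh5, Zeb1, Snai2 and the per-array values of other genes were added after their values were seen. The number of arrays limits the precision, and detection calls were not used here. On simulated data 96.5 to 99.5% of 200 genes shifted by 2 were recovered. At a shift of 1.5 it was 89.5 to 98.5%, lowest for the difference of the gland changes. No smaller shift was simulated. Same-numbered replicates were checked for pairing: 2 of 31 pairs correlated above 0.1 (range -0.397 to 0.215), so the numbers were not treated as pairs. Alternatives were no fold minimum, dim genes left out, probe sets averaged per gene, centring, quantile normalization, trended and robust eBayes, a replicate block, only the groups compared, each array left out, and every probe set on its own. The genes and lists were chosen with earlier results of these data known. Figures were drawn with matplotlib 3.10.9.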

Additional observations from a re-analysis of the deposited data

Results flagged for a closer look

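Among 64 groups of 4 arrays tested for 32 named genes, 2 had an array far from the others, where chance gives about 1 in 20. Krt8 in gland CD4 T cell replicate 2 read 8.02, against 7.36, 7.35 and 7.25 in the others of its group. Krt19 in gland CD4 T cell replicate 3 read 4.43, against 3.53, 3.61 and 3.56.

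On the chosen probe sets, the change from spleen to gland differed between B and CD4 T cells for 4 genes by limma's test of the difference. It was larger in B cells by 1.39 for Gjb2 (adjusted p = 0.0395) and by 0.86 for Dsp (adjusted p = 0.0157). It was lower in B cells for Krt222 (-1.11, adjusted p = 0.00036) and for Epcam (-0.80, adjusted p = 0.0127).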

How the results depend on the processing

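Over the alternatives run, 1543 single-gene values kept their direction and side of the threshold, 25 kept their direction but missed the threshold, and 0 reversed. With no fold minimum the members called lower were 12 against gland and 16 against spleen lymphocytes in epithelium, and 1 each in gland against spleen B and CD4 T cells. Of all 17097 genes, 6313, 6553, 1687 and 1827 were lower in these 4 comparisons. The difference of the gland changes had 2 members higher and 2 lower, against 611 and 1120 of all genes. Gland B against CD4 T cells had 3 higher and 5 lower, against 2451 and 2745 of all genes. The replicate block gave 1 lower in B cells, against 284 of all genes, and moved no other count of calls by over 1.5 times. For the difference of the gland changes, quantile normalization gave 2 higher and 0 lower, centring 0 lower, and averaging the probe sets of each gene 3 lower. Among all genes quantile normalization gave 264 higher and 596 lower, centring 551 lower and averaging 565 lower. Every probe set, an alternative chosen after seeing the data, gave 4 members lower. The shares of all genes with every probe set or with 1 array left out are not given here. Leaving out 1 array gave 0 to 1 lower in epithelium against gland lymphocytes, 0 to 1 lower in B cells, and 0 to 1 higher and 1 to 2 lower for the difference. The lost calls included Ocln in CD4 T cells (0.96, centred), Krt222 for the difference (-0.98, centred or quantile) and Tjp3 against spleen (0.94, centred). Gjb2 for the difference lay between 1.21 and 1.49 where its call was lost. The cause was not tested. The fold minimum kept out smaller differences that passed the adjusted p, such as Pkp2 (0.86) and Epcam (0.70) in B cells, and levels under 4.71 cannot be told from background.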
